A study of Mus musculus with 17 samples.

Results

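Fibroblast matrix genes and the receptors of platelet-derived growth factor (PDGF) were followed across 17 mouse kidney cortex samples. The 10 genes were taken by symbol from the 38293 genes of the deposited table, namely Col1a1, Col1a2, Col3a1, Dcn, Lum, Fn1, Thbs1, Pdgfra, Pdgfrb and Acta2. Of these, 9 were high enough to be tested, and Lum was not. The study compared wild-type (WT) mice with inducible knockout (KO) mice of CCN2, a secreted matricellular protein formerly called CTGF, after ischemia-reperfusion injury (IRI) or a sham operation. The groups were 4 kidneys labelled WT SHAM, 4 labelled WT IRI, 4 labelled CCN2 KO SHAM and 5 labelled CCN2 KO IRI. The study's methods count 1 more CCN2 KO IRI kidney, which is not analysed here. In IRI mice both renal pedicles were clamped for 25 min, sham mice had the same surgery with no clamp, and all kidneys were taken after 4 h. The mice were males of the strain labelled C57BL/6, which the methods give as C57Bl6/J, and were 12 to 14 weeks old when injected. The study's methods describe CCN2 flox/flox mice crossed with ROSA26CreERT2 mice, in which a tamoxifen-activated Cre is made from a locus that is active in most cell types. They received 4 injections of tamoxifen in corn oil or of corn oil, then 14 days without treatment. Since tamoxifen induced the knockout, the drug and the genotype cannot be told apart.

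Fibroblasts and pericytes lie between the tubules and around the capillaries of the kidney, and make fibrillar collagens, small leucine-rich proteoglycans and fibronectin. They carry the receptor tyrosine kinases PDGFRα and PDGFRβ, which bind PDGF from platelets, endothelium and epithelium and drive their growth and migration. In chronic kidney disease these cells turn into myofibroblasts, which make α-smooth muscle actin, the product of Acta2.

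All values are deposited log2 RPKM (reads per kilobase of gene, scaled to the reads of the library), quantile-normalized by the authors, with a floor of −3.32 that stands for an RPKM of 0.1. Within a group, values are given in the order of the kidneys' titles, which were 32A1, 32A2, 33A1 and 33A2 in WT SHAM, 32B4, 32B5, 33B3 and 33B4 in CCN2 KO SHAM, 33C1 to 33C4 in WT IRI and 33D2 to 33D6 in CCN2 KO IRI. A gene was tested where at least 4 kidneys exceeded log2 0, an RPKM of 1, which held for 12608 genes. A gene is said to rise or fall, or to pass, where limma's Benjamini-Hochberg adjusted p over these genes was under 0.05. Ctgf, the gene that encodes CCN2, averaged 3.69 in WT SHAM, 3.41 in CCN2 KO SHAM, 4.58 in WT IRI and 4.23 in CCN2 KO IRI kidneys. Neither genotype difference passed (adjusted p = 0.78 after sham and 0.53 after IRI), so Ctgf in these libraries does not tell the genotype labels apart, and the groups are named by their labels throughout. The study's own measurement of CCN2 mRNA is not used here. The part of Ctgf that the deletion removes is not given in the sources used here. The proximal tubule marker Slc34a1 lay between 10.64 and 11.64 in every kidney. Between CCN2 KO IRI and WT IRI kidneys 1546 genes passed, a count that ranged from 349 to 1771 on leaving out 1 kidney. It was lowest without the WT IRI kidney 33C4, and was 600 without 33C3, 747 without 33D6, 863 without 33D4 and 951 without 33C1.

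After IRI, 5 of the 9 genes tested were higher in CCN2 KO than in WT kidneys, where 7.19% of all genes tested were higher and 5.07% lower. They were the fibrillar collagens Col1a1 (3.26-fold), Col3a1 (3.21-fold) and Col1a2 (2.37-fold), the matricellular glycoprotein gene Thbs1 (2.05-fold) and the proteoglycan gene Dcn (1.79-fold). Pdgfrb, Fn1 and Pdgfra were 1.87-, 1.65- and 1.63-fold higher and did not pass. Acta2 was between 29.2 and 32.6 RPKM at the mean of every group, and its log2 difference was −0.13. Of the 9 genes, 5 had every CCN2 KO IRI kidney above every WT IRI kidney, which held for 10.1% of all genes tested. They were the 5 genes that passed, in a test of the same kidneys, so the gap is no separate support for the calls. The median log2 difference over the 9 genes was 0.90, beside 0.02 over all genes tested. The 5 calls rested in part on 1 kidney: without 33C4 only Thbs1 and Col3a1 passed, and when 33D2, the CCN2 KO IRI kidney with the highest collagens, was left out as well, only Thbs1 did. With no filter on low genes, over 38293 genes, Thbs1 was again the only one of the 5 to pass.

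**Figure D1:**
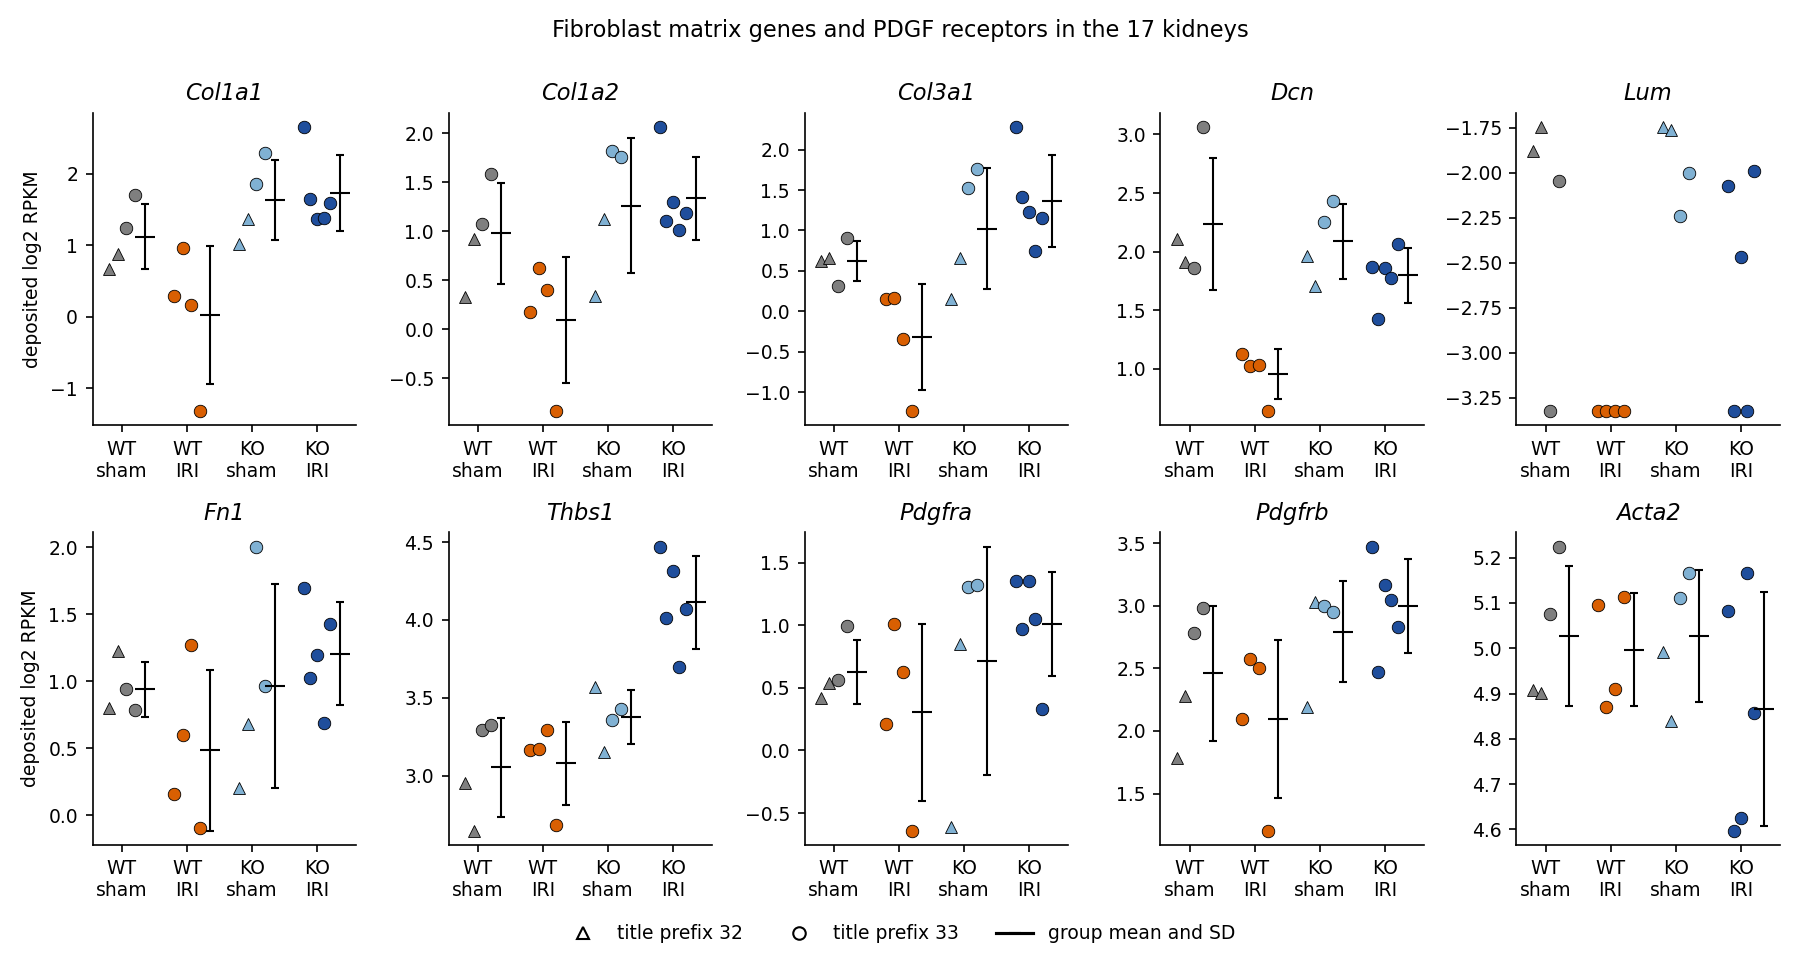
Deposited log2 RPKM (vertical axes, each with its own range) of the 10 genes in the 17 kidneys, by group. Triangles and circles are kidneys with title prefix 32 and 33, and the bars give the group mean and SD, left out for Lum, which has values at the floor. For Col1a1, Col1a2, Col3a1, Dcn and Thbs1 every CCN2 KO IRI kidney lies above every WT IRI kidney, and the Acta2 axis spans less than 1 log2 unit.

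Type I collagen is a heterotrimer of the products of Col1a1 (chr11:94936224-94953042, plus strand) and Col1a2 (chr6:4504814-4541544, plus strand), in GRCm38 coordinates. Col1a1 was 0.66, 0.88, 1.24 and 1.71 in the WT SHAM kidneys and 1.02, 1.37, 1.86 and 2.29 in the CCN2 KO SHAM kidneys. After IRI it was 0.29, 0.96, 0.16 and −1.32 in the WT kidneys and 2.66, 1.65, 1.36, 1.39 and 1.59 in the CCN2 KO kidneys. The IRI groups did not overlap, the WT kidney 33C4 (−1.32) and the CCN2 KO kidney 33D2 (2.66) lay at the far ends, and the sham groups overlapped. Group means were 1.12 ± 0.46 (SD, n = 4) in WT SHAM, 0.02 ± 0.96 (n = 4) in WT IRI, 1.63 ± 0.56 (n = 4) in CCN2 KO SHAM kidneys and 1.73 ± 0.53 (n = 5) in CCN2 KO IRI kidneys. The log2 difference after IRI was 1.71 ± 0.39 (limma's SE, adjusted p = 0.0143). Without 33C4 it was 1.26 (adjusted p = 0.0559), and without 33C4 and 33D2 it was 1.03 (adjusted p = 0.0906).

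After IRI, Col1a2 had the same kidneys at its extremes as Col1a1. It was 0.33, 0.93, 1.07 and 1.59 in the WT SHAM kidneys and 0.34, 1.13, 1.82 and 1.76 in the CCN2 KO SHAM kidneys. In the injured kidneys Col1a2 was 0.18, 0.63, 0.40 and −0.83 under the WT label and 2.07, 1.11, 1.30, 1.01 and 1.19 in the CCN2 KO kidneys. The lowest WT and the highest CCN2 KO kidney after IRI were again 33C4 and 33D2, and the IRI groups did not overlap. The log2 difference after IRI was 1.24 ± 0.35 (limma's SE, adjusted p = 0.0308). This call was lost when any 1 of 6 kidneys was left out (33C1, 33C3, 33C4, 33D2, 33D4 or 33D6), with adjusted p from 0.0566 without 33C3 to 0.128 without 33C4, and without 33C4 and 33D2 the difference was 0.75 (adjusted p = 0.228).

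Col3a1 (chr1:45311538-45349706, plus strand) encodes type III collagen, a homotrimer that is found with type I collagen in the interstitium and in vessel walls. It was 0.63, 0.66, 0.31 and 0.91 in the WT SHAM kidneys and 0.15, 0.66, 1.52 and 1.76 in the CCN2 KO SHAM kidneys. In the IRI groups it was 0.15, 0.16, −0.34 and −1.23 in the WT kidneys and 2.28, 1.42, 1.23, 0.74 and 1.15 in the CCN2 KO kidneys. All 4 WT IRI kidneys were below all 5 CCN2 KO IRI kidneys and below all 4 WT SHAM kidneys. Means were 0.63 ± 0.25 (SD, n = 4), −0.32 ± 0.65 (n = 4), 1.02 ± 0.75 (n = 4) and 1.36 ± 0.57 (n = 5) in the WT SHAM, the WT IRI, the CCN2 KO SHAM and the CCN2 KO IRI kidneys. The log2 difference between the IRI groups was 1.68 ± 0.36 (limma's SE, adjusted p = 0.0106), and it passed when any single kidney was left out. Without 33C4 the difference was 1.38 and passed only narrowly (adjusted p = 0.0499). Without both 33C4 and 33D2 the difference was 1.15 (adjusted p = 0.0865).

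Because the fibrillar collagen genes moved together, the bases before their start sites are shown for those with an entry in the RefSeq promoter table (build GRCm38.p6), in which 4 of the 10 genes had one. For Col3a1 these are the 250 bases before the start, chr1:45311288-45311537. For Col1a2 they are 123 bases, chr6:4505370-4505492, from −248 to −126, since the rest of that window overlaps exons of the GENCODE M21 annotation. This stretch lies inside the GENCODE span of Col1a2 given above, which begins at chr6:4504814, upstream of the RefSeq start used here. Capitals mark matches to the motifs searched on both strands of the 250 bases, counted so that −1 is the base just before the start.
Col1a2: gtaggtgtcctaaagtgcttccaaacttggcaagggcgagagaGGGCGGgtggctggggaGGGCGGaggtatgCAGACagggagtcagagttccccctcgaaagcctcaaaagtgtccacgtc
Col3a1: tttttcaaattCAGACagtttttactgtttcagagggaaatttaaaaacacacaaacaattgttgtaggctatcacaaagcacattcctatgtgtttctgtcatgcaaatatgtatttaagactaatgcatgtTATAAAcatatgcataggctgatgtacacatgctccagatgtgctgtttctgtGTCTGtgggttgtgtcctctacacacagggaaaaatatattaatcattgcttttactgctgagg

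The motifs were the TATA box TATAAA, the CCAAT box CCAAT, the GC box GGGCGG, the AP-1 site TGANTCA, the SMAD-binding element CAGAC and the CArG box, a site of serum response factor. The Col1a2 window held GC boxes starting at −205 and −188 and a SMAD-binding element at −175, and a CCAAT box at −109 lay outside the stretch shown. The Col3a1 window held TATAAA at −117 to −112 and SMAD-binding elements at −239 and, on the other strand, at −64. None of the motifs overlapped another there, and neither window held the AP-1 site or the CArG box. Of 27025 promoter windows of the same length, 42.1% held the SMAD-binding element, 34.5% the CCAAT box, 32.9% the GC box, 13% the TATA box, 6.87% the AP-1 site and 1.4% the CArG box. The matches describe letters, and no binding was measured.

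Decorin, the product of Dcn (chr10:97479609-97518143, plus strand), is a small leucine-rich proteoglycan that binds collagen fibrils and TGFβ. Dcn was 2.11, 1.91, 1.86 and 3.06 in the WT SHAM kidneys and 1.96, 1.71, 2.25 and 2.43 in the CCN2 KO SHAM kidneys. Its values after IRI were 1.13, 1.03, 1.03 and 0.64 in the WT kidneys and 1.87, 1.43, 1.86, 1.77 and 2.06 in the CCN2 KO kidneys. Every WT IRI kidney was below every other kidney analysed, and the other 3 groups overlapped. The WT IRI mean was 0.96 ± 0.22 (SD, n = 4), against 2.24 ± 0.56 (n = 4) in WT SHAM, 2.09 ± 0.32 (n = 4) in CCN2 KO SHAM kidneys and 1.80 ± 0.23 (n = 5) in CCN2 KO IRI kidneys. Between the IRI groups the log2 difference was 0.84 ± 0.22 (limma's SE, adjusted p = 0.0233). The call was lost without 33C3, 33C4, 33D4 or 33D6, with adjusted p from 0.0507 to 0.0949 and differences from 0.74 to 0.87.

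Lumican, the product of Lum (chr10:97565128-97572703, plus strand), is a proteoglycan of the same family, and its gene lies next to Dcn on chromosome 10. Lum did not exceed log2 0 in any kidney. It was listed at the floor in all 4 WT IRI kidneys, in 2 of 5 CCN2 KO IRI kidneys, in 1 of 4 WT SHAM kidneys and in none of 4 CCN2 KO SHAM kidneys. The values above the floor lay between −2.46 and −1.74. A two-sided exact permutation test between the IRI groups gave p = 0.238 (n = 5 and 4), and no fold is given at this level.

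Fibronectin, the product of Fn1 (chr1:71585520-71653200, minus strand), is the glycoprotein on which other matrix proteins assemble. Fn1 was 0.80, 1.22, 0.94 and 0.79 in the WT SHAM kidneys and 0.20, 0.68, 2.01 and 0.96 in the CCN2 KO SHAM kidneys. With injury it was 0.16, 0.60, 1.27 and −0.10 in the WT kidneys and 1.70, 1.02, 1.20, 0.69 and 1.43 in the CCN2 KO kidneys. All 4 groups overlapped. The log2 difference between the IRI groups was 0.72, with an interval from 0.04 to 1.41 (limma, confidence level 95%), and the adjusted p was 0.144.

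Thrombospondin-1, the product of Thbs1 (chr2:118111876-118127133, plus strand), is a matricellular glycoprotein that is stored in platelets, is made by many cells under stress and can activate latent TGFβ. Thbs1 was 2.95, 2.65, 3.30 and 3.32 in the WT SHAM kidneys and 3.57, 3.16, 3.36 and 3.43 in the CCN2 KO SHAM kidneys. Among IRI kidneys it was 3.16, 3.17, 3.29 and 2.69 in the WT kidneys and 4.47, 4.01, 4.31, 3.70 and 4.07 in the CCN2 KO kidneys. The 5 CCN2 KO IRI kidneys were above all 12 other kidneys, and the other 3 groups overlapped. Group means were 3.06 ± 0.32 (SD, n = 4), 3.08 ± 0.27 (n = 4), 3.38 ± 0.17 (n = 4) and 4.11 ± 0.30 (n = 5) in the WT SHAM, the WT IRI, the CCN2 KO SHAM and the CCN2 KO IRI kidneys. The log2 difference between the IRI groups was 1.03 ± 0.17 (limma's SE, adjusted p = 0.0039), and it passed under every alternative tried, with adjusted p = 0.0402 without 33C4 and 33D2. Predicted genes are annotated on the opposite strand of Thbs1 and of Pdgfra, and Apol7d on that of Fn1. Since the strand setting of the counting is not given, reads of these paired genes cannot be told apart. On the same strand, the predicted genes Gm43921 and Gm47302 overlap Col1a2 and Col3a1, and Mir7025 overlaps Pdgfra. The effect of these overlaps on the counts was not tested.

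Of the platelet markers Pf4, Ppbp and Itga2b, none rose with Thbs1 between the IRI groups by limma. Itga2b fell by 0.82 on the log2 scale (adjusted p = 0.0239). Of 9 platelet markers 3 were tested, and their summed RPKM ranged from 2.42 to 3.99 in the CCN2 KO IRI and from 2.28 to 10.65 in the WT IRI kidneys. Pf4 was 0.31 higher on the log2 scale in CCN2 KO IRI kidneys, with values that overlapped, and it was at the floor in 3 of the 17 kidneys. In CCN2 KO IRI against CCN2 KO SHAM kidneys, where Thbs1 also rose, Pf4 rose by 2.13 (limma's adjusted p = 0.0479) and Itga2b fell by 0.81 (adjusted p = 0.0112) on the log2 scale. The part of platelet RNA in the Thbs1 differences was not tested.

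The PDGF receptors were higher in CCN2 KO than in WT kidneys after IRI without passing the test. Pdgfrb (chr18:61045150-61085061, plus strand), the receptor of pericytes and mesangial cells, was 1.79, 2.28, 2.79 and 2.98 in the WT SHAM kidneys and 2.19, 3.03, 3.0 and 2.95 in the CCN2 KO SHAM kidneys. After IRI the levels were 2.09, 2.57, 2.50 and 1.20 in the WT kidneys and 3.47, 2.47, 3.17, 3.05 and 2.83 in the CCN2 KO kidneys. The IRI groups overlapped through 1 kidney, 33D3 (2.47), which lay below 33C2 and 33C3. The log2 difference was 0.90 ± 0.30 (limma's SE, adjusted p = 0.0545), with an interval from 0.28 to 1.53. It passed with sample weights (adjusted p = 0.0116), with the title prefix as a term (0.0339) and without 33C2 (0.0379) or 33D3 (0.0345), and without 33C4 and 33D2 it was 0.49 (0.343).

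Pdgfra (chr5:75152292-75198215, plus strand) marks interstitial fibroblasts and encodes the receptor that binds PDGF-A as well as PDGF-B. Pdgfra was 0.42, 0.54, 0.56 and 0.99 in the WT SHAM kidneys and −0.61, 0.85, 1.31 and 1.32 in the CCN2 KO SHAM kidneys. In injured kidneys it was 0.21, 1.01, 0.63 and −0.64 in the WT kidneys and 1.35, 0.97, 1.35, 1.05 and 0.33 in the CCN2 KO kidneys. The groups overlapped, and the log2 difference of 0.71 between the IRI groups (limma, adjusted p = 0.221) had an interval from −0.09 to 1.51. The receptors were also compared as a ratio within each kidney. Pdgfra minus Pdgfrb was −1.99 ± 0.37 (SD, n = 5) in the CCN2 KO and −1.79 ± 0.15 (n = 4) in the WT kidneys, a difference of −0.20 with a two-sided exact permutation p of 0.349.

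Acta2 (chr19:34241090-34255590, minus strand) had the highest level per length of the 10 genes and the smallest range. It was 4.91, 4.90, 5.07 and 5.22 in the WT SHAM kidneys and 4.99, 4.84, 5.11 and 5.17 in the CCN2 KO SHAM kidneys. The levels after IRI were 5.10, 4.87, 4.91 and 5.11 in the WT kidneys and 5.08, 4.60, 4.63, 5.17 and 4.86 in the CCN2 KO kidneys. All 4 groups overlapped. The log2 difference between the IRI groups had an interval from −0.39 to 0.13 (limma, confidence level 95%), which leaves out an increase of the size seen for the collagens. The log2 ratio of Acta2 to Tagln, another smooth muscle gene, differed by −0.29 between the CCN2 KO IRI and the CCN2 KO SHAM kidneys (two-sided exact permutation test, p = 0.0159, n = 5 and 4, with no overlap, adjusted p = 0.317 over 20 ratio tests). None of the 20 ratio tests passed after adjustment, and 1 had an exact p under 0.05.

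The same 9 genes were compared in the sham kidneys, to ask whether the genotypes differed without injury. There 0 of 9 passed, as did 0% of all genes tested, and neither limma's unadjusted p nor the exact permutation p was under 0.05 for any of them. The 0 over all genes tested depended on 1 kidney, as 136 genes passed without the CCN2 KO SHAM kidney 32B5 (72 higher and 64 lower), with 0 of the 9 among them. The log2 differences, CCN2 KO SHAM minus WT SHAM, ranged from −0.15 for Dcn to 0.51 for Col1a1. The upper bounds of the intervals (limma, confidence level 95%) were 1.39 for Col1a1, 1.20 for Col3a1, 1.06 for Col1a2, 0.70 for Thbs1 and 0.34 for Dcn. Between the IRI groups the lower bounds were 0.87, 0.91, 0.50, 0.67 and 0.37, in the same order of genes. The sham and IRI intervals thus overlapped for Col1a1, Col3a1, Col1a2 and Thbs1, and not for Dcn. Whether the genotype difference changed with injury is asked by the response difference below.

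The response to IRI was then taken within each genotype, with the WT IRI and CCN2 KO IRI kidneys already used in the comparison between the IRI groups. In WT kidneys 2 of 9 genes fell and none rose, where 20.3% of all genes tested fell and 19.5% rose. Dcn fell by 1.28 ± 0.23 (limma's SE, adjusted p = 0.0004) on the log2 scale, and did so under every alternative tried. Col1a1 fell by 1.10 ± 0.42 (adjusted p = 0.0445), a call that was lost under 4 other settings and on leaving out any of 6 kidneys (32A2, 33A1, 33A2, 33C1, 33C3 or 33C4), with adjusted p up to 0.178. Col3a1 (−0.94, adjusted p = 0.0594) and Col1a2 (−0.89, adjusted p = 0.0659) did not pass. Thbs1 differed by 0.02, with an interval from −0.36 to 0.40.

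In CCN2 KO kidneys 1 of 9 genes rose after IRI and none fell, where 14.3% of all genes tested rose and 13.2% fell. It was Thbs1, by 0.73 ± 0.17 (limma's SE, adjusted p = 0.0048). The collagens Col1a1 and Col1a2 differed by 0.09 and 0.07, and Col3a1 by 0.34, with intervals that reached from −0.74 to 1.11 over the 3 genes. Dcn differed by −0.29, with an interval from −0.76 to 0.18.

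The response difference itself, CCN2 KO minus WT, passed for 0 of 9 genes (limma) and for 0.182% of all genes tested. The unadjusted p was under 0.05 for 3 of them, Dcn with a log2 difference of 0.99 (adjusted p = 0.170), Thbs1 with 0.71 (0.195) and Col3a1 with 1.28 (0.270). So a fall of Dcn that passed in WT kidneys and not in CCN2 KO kidneys was not shown to differ between the genotypes, and the same holds for the rise of Thbs1.

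**Figure D2:**
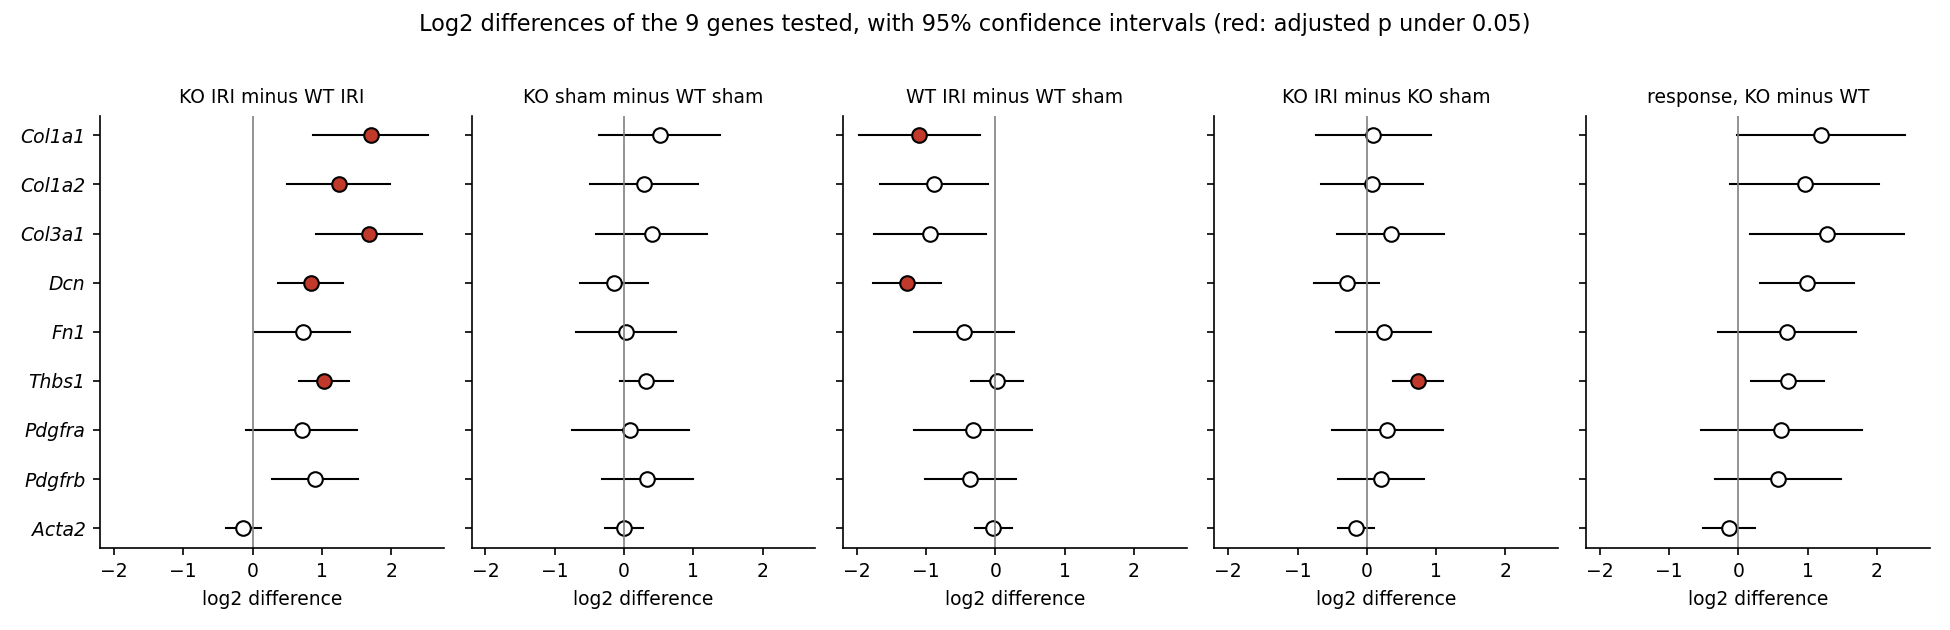
Log2 differences (horizontal axes, points) with 95% confidence intervals (lines) of the 9 genes tested, in 5 comparisons from 1 limma fit. Filled points passed the adjusted p of 0.05: 5 genes between the IRI groups, Col1a1 and Dcn in WT IRI against WT SHAM, and Thbs1 in CCN2 KO IRI against CCN2 KO SHAM. The comparisons share groups of kidneys.

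Across the 17 kidneys the fibrillar collagens varied together. Pearson's r of the log2 levels was 0.96 for Col1a1 with Col1a2, 0.94 for Col1a1 with Col3a1 and 0.91 for Col1a2 with Pdgfrb, and after the group means were taken off it was 0.92, 0.87 and 0.88. Dcn was further from the collagens, with r from 0.63 to 0.70, and Acta2 lay between −0.30 and 0.27 with each of the other 8 genes tested. These are descriptions over kidneys that share injury, genotype and normalization. By the same measure, among all genes tested, Col1a1 was most like Cygb (0.93), Sparc (0.92), Bgn (0.90), Adam15 (0.90) and C1qb (0.90). Pdgfrb was most like Sparc (0.97), Podxl (0.94), Emilin1 (0.94), Angptl2 (0.93) and Mfge8 (0.92). Col3a1 was most like Pcx (0.89), Fmo2 (0.87), F2r (0.86), Lrpprc (0.85) and Ass1 (0.85).

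The neighbours of Thbs1 included Cerk (0.92), Ddb1 (0.91), Eif4ebp2 (0.90) and Cap1 (0.89). None of these was among the genes named for Col1a1 or Col3a1, but Col1a1 and Col3a1 shared none with each other either. The neighbours of Dcn were Slc16a13 (0.89), Mmrn2 (0.89), Lhx1 (0.89), Atp1b2 (0.88) and Dhtkd1 (0.87). Acta2 had the weakest likeness, with Hdac8 (0.81), Nudt18 (0.73), Klk1b8 (0.71), Snord89 (0.69) and Csrnp2 (0.69).

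**Figure D3:**
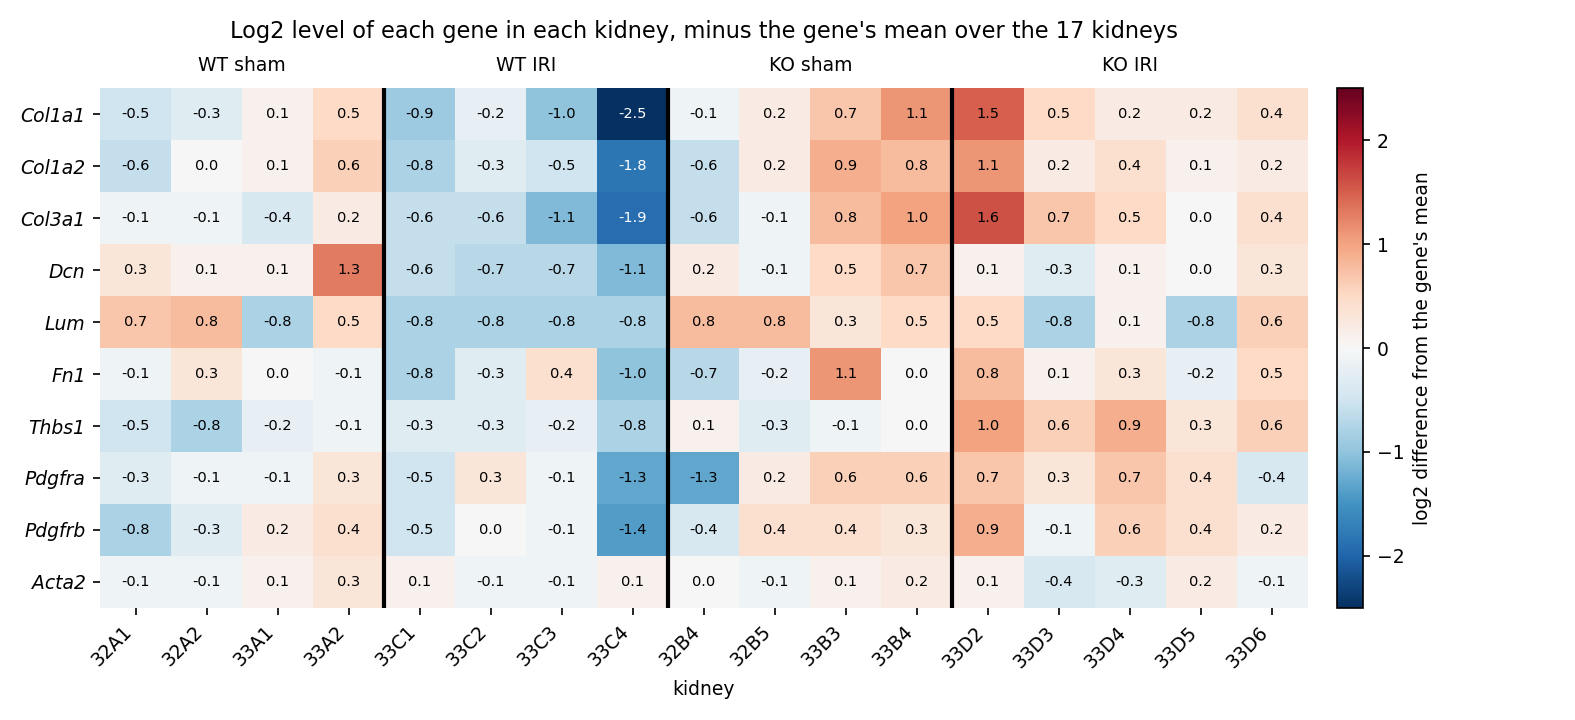
Log2 level of each gene (rows) in each of the 17 kidneys (columns, by group), minus the gene's mean over the 17 kidneys, in colour and rounded to 1 decimal. Kidney 33C4 has the lowest and 33D2 the highest Col1a1, Col1a2 and Col3a1 of all kidneys, and Acta2 stays near 0.

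The titles of the kidneys begin with 32 or 33, and the meaning of the prefix is not given in the sources used here. All 9 IRI kidneys carry 33, and each sham group has 2 kidneys of each prefix. In both sham groups the kidneys of prefix 33 were above those of prefix 32 for Col1a1, Col1a2, Pdgfra and Acta2. For Lum, near the floor, they were below them, by −0.87 in WT SHAM and −0.37 in CCN2 KO SHAM kidneys. The share of all genes tested that lacked overlap between sets split by prefix was not computed. Whether the gaps in this paragraph are particular to these genes is therefore not known. For Col1a1 the gap was 0.70 in WT SHAM and 0.88 in CCN2 KO SHAM kidneys, and for Col1a2 it was 0.70 and 1.06. The comparison between the IRI groups lies within prefix 33. Within prefix 33 the WT IRI kidneys differed from the WT SHAM kidneys by −1.45 for Col1a1, −1.24 for Col1a2 and −1.50 for Dcn, with no overlap (n = 4 and 2, no test). Dcn was also lower without overlap in CCN2 KO IRI than in CCN2 KO SHAM kidneys of prefix 33, by −0.54 (n = 5 and 2, no test). In the same CCN2 KO kidneys Col1a1 differed by −0.35, Col1a2 by −0.46 and Col3a1 by −0.28, each with overlap. Against all CCN2 KO SHAM kidneys these collagens differed by 0.09, 0.07 and 0.34, so the sign depended on the kidneys of prefix 32. Thbs1 within prefix 33 differed by −0.23 in WT and by 0.72 in CCN2 KO kidneys, each without overlap. With the prefix as a term in the fit, 4 genes fell in WT IRI against WT SHAM kidneys, as Col1a2 (−1.33, limma's adjusted p = 0.0079) and Col3a1 (−1.24, adjusted p = 0.0270) then also passed.

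Of 12 other collagens tested, 4 were higher in CCN2 KO than in WT kidneys after IRI and none lower: Col5a1 (log2 difference 0.91, adjusted p = 0.0384), a fibrillar collagen that nucleates type I fibrils, and the basement membrane collagens Col4a2 (0.50), Col4a1 (0.45) and Col18a1 (0.43). The median of the list was 0.51. For this list and those below, the shares over all genes tested were 7.19% higher and 5.07% lower between the IRI groups. Of all genes tested, 19.5% rose and 20.3% fell in WT kidneys after IRI, and 14.3% rose and 13.2% fell in CCN2 KO kidneys. In WT kidneys 4 of the 12 rose after IRI and none fell, with Col8a1 at 1.28, Col12a1 at 0.94, Col4a1 at 0.57 and Col18a1 at 0.49. In CCN2 KO kidneys 5 rose, these 4 and Col4a2 (0.64). Col8a1 averaged −1.03 in WT SHAM and −0.70 in CCN2 KO SHAM kidneys, and Col12a1 −0.76 and −0.74. In both IRI groups their means were above log2 0, so these low genes passed the filter mainly through the IRI kidneys. The basement membrane genes Col4a1 and Col18a1 rose in the WT kidneys in which Col1a1 fell.

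Among 17 genes tested of collagen folding and crosslinking, 3 were higher in CCN2 KO than in WT kidneys after IRI, namely Sparc (1.14, adjusted p = 0.0301), whose product binds collagen outside the cell, the collagen chaperone gene Serpinh1 (0.64) and the procollagen C-proteinase gene Bmp1 (0.64). In WT kidneys 4 rose after IRI, among them the crosslinking enzyme gene Lox (1.23) and the prolyl hydroxylase gene P4ha1 (0.77), and 3 fell, among them P3h3 (−0.97) and Bmp1 (−0.56). These counts were near the shares over all genes tested, and the median of the 17 was −0.07, beside −0.05. In CCN2 KO kidneys 2 rose, P4ha1 (0.59) among them, and 1 fell.

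Other small leucine-rich proteoglycans fell with Dcn in WT kidneys. Of 5 tested, 4 fell after IRI, namely Podn (−1.17), Bgn (−1.16), Prelp (−1.15) and Ogn (−0.91), and the median of the 5 was −1.15, beside −0.05 for all genes tested. Bgn, the gene of biglycan, was also higher in CCN2 KO than in WT kidneys after IRI (1.13, adjusted p = 0.0290), and Podn (−0.61) fell in CCN2 KO kidneys. Of 10 microfibril, elastin and fibulin genes, 4 fell in WT kidneys, Ltbp3 (−1.19), Ltbp4 (−0.90), Eln (−0.75) and Efemp1 (−0.61), and 3 of these, Eln (0.90), Ltbp4 (0.70) and Ltbp3 (0.67), were higher in CCN2 KO than in WT kidneys after IRI. The products of Ltbp3 and Ltbp4 tether latent TGFβ to the matrix.

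Of 6 other matricellular genes tested, only Tnxb was higher in CCN2 KO than in WT kidneys after IRI (1.01, adjusted p = 0.0244). Cyr61, which encodes a relative of CCN2, rose in WT kidneys by 4.46 and in CCN2 KO kidneys by 3.39, and Spp1, the osteopontin gene, rose by 1.77 and 1.05. Tnc rose (1.16) and Tnxb fell (−0.81) in WT kidneys. Tnc was low, with a mean of −1.15 in WT SHAM and 0.02 in WT IRI kidneys. Among 11 matrix proteases and inhibitors tested, Timp3 was higher (0.86) and Adamts1 lower (−1.22) in CCN2 KO than in WT kidneys after IRI. In WT kidneys 4 rose, led by Adamts1 (3.31) and Timp1 (1.80), and 2 fell, Mmp11 (−0.92) among them, and in CCN2 KO kidneys 5 rose and none fell. Timp1 was low as well, with a mean of −1.03 in WT SHAM and 0.77 in WT IRI kidneys.

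All 4 PDGF ligand genes were tested. Pdgfa rose by 1.20 in WT and by 1.16 in CCN2 KO kidneys, and Pdgfb by 1.06 and 1.24, and between the IRI groups none of the 4 passed or had an unadjusted p under 0.05 (limma). Of 15 genes of PDGF receptor signalling and related receptor kinases, Flt4 (0.93), Kit (0.65) and Rasa1 (0.39) were higher and Shc1 (−0.24) lower in CCN2 KO than in WT kidneys after IRI. In WT kidneys 7 rose after IRI, among them the kinase gene Src (0.96), and 3 fell, Kit (−1.25), Kdr (−0.81) and Plcg1 (−0.73). Neither Pdgfra nor Pdgfrb passed within either genotype.

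Smooth muscle and actin genes were compared with Acta2. Of 11 smooth muscle contractile genes 0 passed between the IRI groups by limma, 3 with an unadjusted p under 0.05, while in WT kidneys Smtn (1.09) rose and Des (−0.91), Mylk (−0.63) and Myl9 (−0.57) fell. Of 12 genes of actin and serum response factor targets, 11 rose in WT kidneys, led by Vcl (1.85), Tpm4 (1.39), Actg1 (1.33) and Zyx (1.10), 10 rose in CCN2 KO kidneys, and only Myh9 (0.48) differed between the IRI groups. Of 15 TGFβ and SMAD genes, 7 rose in WT kidneys, among them Tgif1 (2.30). Tgif1 was lower (−1.65) and Smad6 higher (0.77) in CCN2 KO than in WT kidneys after IRI. Of 13 integrins and collagen receptors, only Itgb5 (0.61) differed between the IRI groups, and 6 rose in WT kidneys, led by Itgb6 (1.74). Over all 21 lists, 211 genes were tested, of which 0 passed in the sham comparison and 0 in the response difference (limma), with an unadjusted p under 0.05 for 9 and 37.

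**Figure D4:**
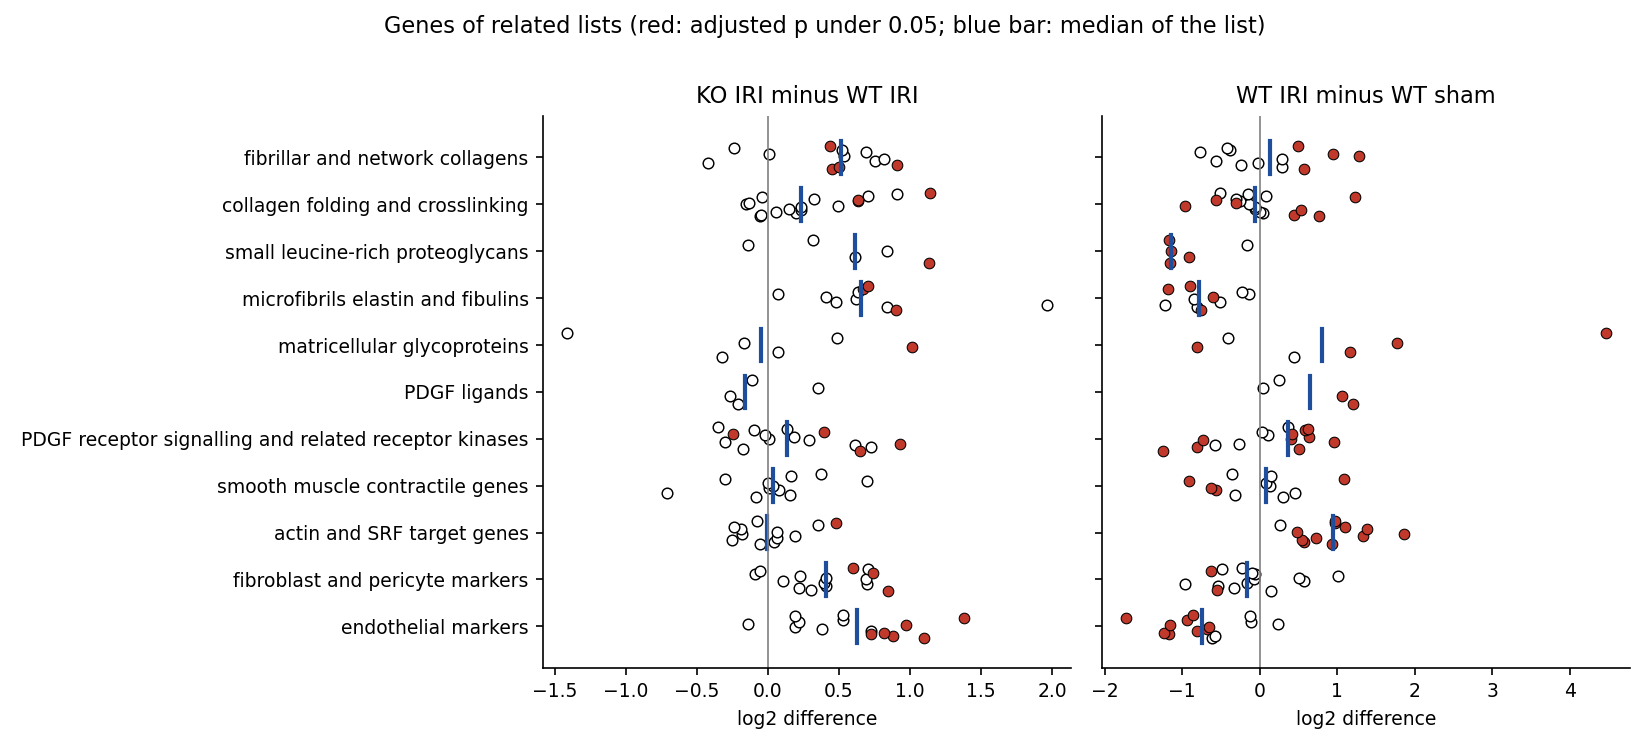
Log2 differences (horizontal axes) of the tested genes in 11 related lists (rows), between the IRI groups and in WT IRI against WT SHAM. Filled points passed the adjusted p of 0.05 and the bar is the median of a list. In WT kidneys the proteoglycan, microfibril and endothelial lists have medians below 0 and the actin list a median above 0, and both panels share the WT IRI kidneys.

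Some markers of other cells moved with the collagens. Of 15 other fibroblast and pericyte markers tested, 3 were higher in CCN2 KO than in WT kidneys after IRI, Cspg4 (0.84), Vim (0.74) and Gsn (0.60), and their summed RPKM (22 markers) ranged from 89.57 to 112.45 against 49.54 to 81.75. Of 14 endothelial markers 6 were higher, led by Plvap (1.38) and Pecam1 (1.09), with summed RPKM from 89.03 to 126.21 against 38.65 to 98.60. Of 10 macrophage markers 3 were higher, Folr2 (2.16), Cd74 (1.32) and C1qa (1.25), with sums from 110.77 to 264.47 against 58.06 to 125.85. Cd74 averaged log2 6.56 in CCN2 KO IRI and 5.24 in WT IRI kidneys, and so made up a large part of these sums. Other macrophage markers went the other way, as Cd68 differed by −0.09 (limma's adjusted p = 0.86) and Csf1r averaged 3.28 against 3.46. Of 9 loop and distal tubule markers 5 were higher, led by Egf (1.92), and Aqp2, named after its value was seen, was lower (−0.87), with sums from 1044 to 1854 against 585.2 to 878.9.

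Of 14 proximal tubule markers 3 were higher, Hnf4a (0.89), Aqp1 (0.60) and Lrp2 (0.44), and of 9 podocyte markers 1 was, Clic5 (0.54). Of 7 mesangial and 3 neutrophil markers none passed between the IRI groups by limma, with an unadjusted p under 0.05 for 1 mesangial marker. In WT kidneys 9 endothelial and 3 mesangial markers fell after IRI. Of 9 neutrophil markers only 3 were tested, and these rose in WT kidneys. S100a8 was below log2 0 in every sham kidney, at most −0.18 in WT SHAM and −0.21 in CCN2 KO SHAM. It thus passed the filter only through the IRI kidneys, where it was high, and its rise is no separate support. Macrophage markers were split in WT kidneys after IRI, as Cd68 (1.97) and Csf1r (0.51) rose and Folr2 (−2.52), C1qa (−1.35) and Cd74 (−1.135) fell. No defining marker of fibroblasts, endothelium or macrophages was at the floor in all kidneys, but Lum was at the floor in 7 and Thy1 in 1. The fibroblast marker Cdh11 and the macrophage marker Adgre1 were too low to be tested. The part of these cells in the collagen result was not tested, and in bulk cortex fewer cells of a type and less RNA per cell cannot be told apart.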

How the data were processed

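Cortex RNA of 17 kidneys was measured by RNA-seq, and groups were taken from the genotype and injury labels. The authors isolated poly(A) RNA, made directional libraries and sequenced single-end reads, aligned them with STAR 2.4.2a to GRCm38 and counted them with HTSeq 0.6.1p1, with a strand setting not given in the sources used here. RPKM values came from edgeR, and the authors deposited them as quantile-normalized log2 RPKM for 38293 genes. Counts and depth are unknown, so no counting interval is given. Quantile normalization gives every library 1 distribution, and low genes such as Lum sit near its floor. The 17 labelled columns were used, and 13 columns that match no labelled sample entered no step here. Whether the authors' quantile normalization drew on them is not given in the sources used here. Across genes, r was 0.915 to 0.961 between libraries of the same group and 0.856 to 0.953 otherwise.

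Genes with fewer than 4 kidneys above log2 0 were left out. For the other 12608 genes limma 3.58.1 (R 4.3.3) was fitted once, with the 4 group means and eBayes with a trend, and Benjamini-Hochberg adjustment ran over all of them. The script was tested on simulated data. Ratios of 2 genes were compared by two-sided exact permutation tests over kidneys, for which the smallest possible p is 0.0159 for 4 against 5 and 0.0286 for 4 against 4. Coordinates and overlapping genes come from GENCODE M21 and promoters from RefSeq. The genes and the 21 lists (286 entries) were chosen with earlier results of these data known. From each list the text names up to 4 genes that passed between the IRI groups and in WT IRI against WT SHAM, by size of change, and for 6 genes the 5 of highest Pearson r, predicted genes and pseudogenes passed over. Some genes that meet this rule are not reported here. Alternatives covered the filter, a pseudocount of 1, median centring, the prior variance, sample weights, the samples in the fit, the title prefix and leaving out each kidney. Leaving out 33C4 and 33D2 together was added after the values were seen.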

Additional observations from a re-analysis of the deposited data

Results flagged for a closer look

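Within groups of kidneys, 39 sets of values of the 10 genes were examined with Dixon's criterion at 95%, and 3 held a value far from the others, where chance gives about 1 in 20. In CCN2 KO IRI kidneys, 33D2 had a Col1a1 of 2.66 where the next kidney had 1.65, and a Col1a2 of 2.07 where the next had 1.30. In CCN2 KO SHAM kidneys, 32B4 had a Pdgfrb of 2.19 where the next had 2.95. Kidney 33C4, the lowest WT IRI kidney for Col1a1, Col1a2, Col3a1, Dcn, Fn1, Thbs1, Pdgfra and Pdgfrb, did not meet the criterion for any of them.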

How the results depend on the processing

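Between the IRI groups 5 genes passed. This count was 1 with no filter, where 38293 genes were tested, and 1 without kidneys 33C4 and 33D2, and it ranged from 2 to 6 on leaving out 1 kidney, with 2 without 33C4 and 3 without 33C3, 33D4 or 33D6. In WT IRI against WT SHAM 2 genes passed. The count was 1 with no filter, with a pseudocount of 1, with no trend and with only the groups compared, 4 with the title prefix as a term, and 1 to 4 on leaving out 1 kidney, 1 without 32A2, 33A1, 33A2, 33C1, 33C3 or 33C4 and 4 without 33C2. The counts of the other 3 comparisons, 0 in the sham comparison, 1 in CCN2 KO kidneys and 0 for the response difference, and that of the ratio tests, 0, were the same under all alternatives run, and no log2 difference that passed changed direction. The cause of the lost calls was not tested beyond the number of genes or kidneys left out. No paired analysis was possible because the kidneys compared share no replicate numbers. Depth is unknown, so it is not known how far counting error limits Lum, Pdgfra and the collagens, which lay near an RPKM of 1.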
